A study of Mus musculus with 6 samples.

Results

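Smooth muscle contractile genes were followed in colon tissue of 3 mouse genotypes. The set is a list of 37 genes of the contractile apparatus, its attachments and its control, chosen by name. For 36 of them a probe set with that single gene symbol was read, out of 18194 genes on the array, and Chrm2 was not analysed here. Each gene was represented by the probe set with the highest mean over the arrays. Of the 36 members, 34 passed the filter on weak signals and were tested among 10916 genes. Cacna1c and Chrm3 lay below it.

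The groups were GPR41 KO, GPR43 KO and wild type (WT), with 2 arrays each. All were C57BL/6 mice aged 6 to 8 weeks, and all received ethanol by rectal injection 24 h before the colon was taken. Every comparison is therefore between genotypes after that injury. GPR41 and GPR43 are receptors for short-chain fatty acids. The labels give no promoter, deleted exon or clone for either line, and name no animal behind an array. The p-values then measure the spread between these samples, which may be technical. Ffar2, the gene of GPR43, had signals of 1857 and 1933 in GPR41 KO, 1598 (the library labelled GPR43 KO replicate 1) and 189.0 (replicate 2) in GPR43 KO, and 1194 and 1118 in WT. The library labelled GPR43 KO replicate 1 therefore went against its label, and the GPR43 KO calls below are also given without it. No probe set named Ffar3, the gene of GPR41, was read. Median signals per array ranged from 80.9 to 96.8, and the number of arrays limits the precision.

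Smooth muscle forms the outer muscle coat of the colon, the thin muscle layer under the mucosa and the walls of its vessels. It contracts when calcium activates myosin light chain kinase, which phosphorylates the light chain of smooth muscle myosin, and it relaxes when myosin phosphatase removes that phosphate. Actin filaments are anchored in dense bodies and at the membrane, and desmin filaments link these anchors. Many of these genes share a promoter element, the CArG box, which binds serum response factor together with its partner myocardin. Pieces of colon can hold more or less muscle, and in whole tissue fewer muscle cells and less RNA per muscle cell cannot be told apart.

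The promoters of members were read because the CArG box ties many of these genes together. RefSeq promoter windows (GRCm38.p6, 250 bases before to 50 after a start) were matched by symbol for 32 of the 36 members. Actg2, Myh11, Tagln and Myocd had no window and were not searched, so whether they hold the box was not read. The CArG box was present in 3 of these 32 genes (9.38%), Myl9, Ldb3 and Vcl, against 488 of all 27025 genes with a window (1.81%). The pattern of the box, CC, then A or T letters, then GG, is the same on both strands. The letters of a single box can differ between the strands, as in Myl9 and Ldb3, while those of Vcl read the same. A CArG-like form, in which 1 of the central A or T letters is G or C, was present in 7 of the 32 (21.9%) and in 9.69% of all genes. The stretches below lie before the start and carry both forms, in capitals, for 5 members. Acta2 and Myl9 encode proteins of the contractile filaments, Synm is a gene that rose in both KO groups, and Ldb3 and Vcl hold the box itself.
Acta2, chr19:34255384-34255473, minus strand: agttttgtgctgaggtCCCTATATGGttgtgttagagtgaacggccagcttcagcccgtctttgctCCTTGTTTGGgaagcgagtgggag
Myl9, chr2:156775289-156775383, plus strand: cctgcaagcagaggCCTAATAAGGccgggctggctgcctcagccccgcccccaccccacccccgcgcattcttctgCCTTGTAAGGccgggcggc
Synm, chr7:67759933-67759992, minus strand: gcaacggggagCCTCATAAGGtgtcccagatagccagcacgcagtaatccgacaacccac
Ldb3, chr14:34588682-34588741, minus strand: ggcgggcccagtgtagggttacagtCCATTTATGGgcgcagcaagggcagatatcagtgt
Vcl, chr14:20929148-20929207, plus strand: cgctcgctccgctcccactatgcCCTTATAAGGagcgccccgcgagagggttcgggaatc
Acta2 and Synm carry only the CArG-like form, Acta2 at 2 places, while Myl9 carries both forms. A match describes these letters and does not show that a factor binds there.

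The first question was how far the muscle share differs between tissue pieces. The muscle level of an array was taken as the mean over the 36 members of log2(signal + 18), after subtracting each gene's own mean over the 6 arrays. It was -0.19 and 0.10 in GPR41 KO, 0.27 (the library labelled GPR43 KO replicate 1) and 0.03 (replicate 2) in GPR43 KO, and -0.18 and -0.03 in WT. The 6 pieces thus spanned 0.46 on the log2 scale, which is 1.38-fold, with the highest value in the library labelled GPR43 KO replicate 1. GPR41 KO replicate 1 and WT replicate 1 were the lowest and had no stable order. The 2 arrays of a group differed by 0.30 in GPR41 KO, 0.25 in GPR43 KO and 0.15 in WT, and the group means were -0.04 in GPR41 KO, 0.15 in GPR43 KO and -0.11 in WT. Both GPR43 KO arrays lay above WT. How GPR41 KO lay to WT depended on the genes and the scaling: over the 34 tested members, without the weak Cacna1c and Chrm3, the levels were -0.15 and 0.10 in GPR41 KO and -0.19 and -0.06 in WT, and with each array centred on its median, -0.04 and 0.08 in GPR41 KO and -0.22 and -0.06 in WT, which do not overlap. The level was not tested between groups, and an exact permutation test of 2 arrays against 2 could not give a two-sided p below 0.333.

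Members moved together between the 2 pieces of a group. In GPR41 KO, replicate 2 was above replicate 1 in 31 of the 34 tested members (91.2%), against 51.9% of all tested genes, and the median difference was 0.23 over members and 0.01 over all tested genes. In GPR43 KO, replicate 2 was above the library labelled replicate 1 in only 4 of 34 (11.8%), against 46.8% of all tested genes, with medians of -0.21 and -0.02. In WT, replicate 2 was above replicate 1 in 23 of 34 (67.6%), against 55.4% of all tested genes, with medians of 0.17 and 0.04. The exceptions in GPR41 KO included Hspb7, at -0.23, and the largest difference there was that of Pln, at 0.88. The array labelled GPR43 KO replicate 1 had the highest signal in 22 of the 36 members, against 18.6% of tested genes. WT replicate 1 had the lowest in 14 (18.2% of tested genes), and GPR41 KO replicate 1 in 11 (19.4%).

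**Figure D1:**
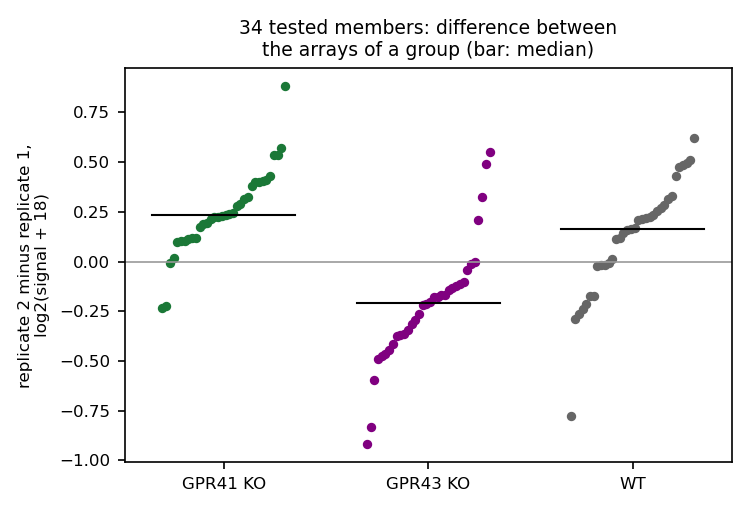
Each point is 1 of the 34 tested members, placed by its difference between the 2 arrays of a group (replicate 2 minus replicate 1, log2(signal + 18)) and sorted within each group along the horizontal axis. The black bars are medians, at 0.23 in GPR41 KO, -0.21 in GPR43 KO and 0.17 in WT, so most members shift the same way within a pair of pieces.

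The 29 members counted here as muscle-restricted and the 7 that many other cells also make (Cald1, Cav1, Csrp1, Flna, Pdlim7, Tpm1 and Vcl) differed in the spread of their level. The level of the restricted members, the weak Cacna1c and Chrm3 among them, ranged over 0.54 between arrays, and that of the broad members over 0.20. Broad members of opposite sign offset each other in that mean. In GPR41 KO against WT, Tpm1 was at 0.43 and Pdlim7 at -0.50, and their single ranges were 0.59 and 0.79. Among single tested members the range over 6 arrays went from 0.08 for Vcl, which encodes the adhesion protein vinculin, to 2.11 for Hspb7, with a median of 0.80, against 0.56 over all tested genes. Vcl had signals of 2902 and 2890 in GPR41 KO, 2814 and 2735 in GPR43 KO, and 2765 and 2794 in WT. Those 6 values lie within 1.06-fold of each other.

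Most marker lists of other cell types had a wider range than the 0.46 of the 36 muscle members. The muscle-restricted members alone ranged over 0.54, close to several of these lists. The same level, computed for marker lists, had a range over the 6 arrays of 0.42 for striated muscle, 0.54 for interstitial cells of Cajal and PDGFRA cells, 0.56 for enteric neurons and glia, 0.57 for mesothelium, and 0.65 for cardiac muscle, for pericytes and vascular muscle, and for fibroblasts. It was 0.69 for colon epithelium, 0.78 for endothelium, 0.93 for adipocytes and 5.52 for neutrophils. The lists differ in length and signal strength, and these ranges were not tested against each other. The epithelial level was 0.18 and 0.12 in GPR41 KO, 0.26 and 0.15 in GPR43 KO, and -0.27 and -0.44 in WT, so all 4 arrays labelled KO lay above both WT arrays. The neutrophil level was -1.75 and -1.84 in GPR41 KO, -0.89 and -1.72 in GPR43 KO, and 2.51 and 3.68 in WT. All 9 tested neutrophil markers fell in both KO groups. The filter took the mean over all 6 arrays, so high WT signals could alone carry a marker into the test. The summed signal of the 11 measured markers was 1196 and 960 in GPR41 KO, 3277 and 1186 in GPR43 KO, and 77762 and 141226 in WT. The part of the epithelial and neutrophil shifts in the muscle results below was not tested. Of the other lists in this paragraph, epithelium had 2 markers that rose in GPR41 KO (Aqp8 and Vil1) and 1 in GPR43 KO (Aqp8), and adipocytes had 1 that fell in both (Fabp4). Aqp8 and Vil1 lost their GPR41 KO calls without GPR41 KO replicate 1 (limma adjusted p = 0.101 and 0.241) or replicate 2 (0.0677 and 0.115), and Vil1 with most other arrays left out too. In GPR43 KO, Aqp8 did so without the library labelled GPR43 KO replicate 1 (0.0572), GPR43 KO replicate 2 (0.165) or GPR41 KO replicate 1 (0.05). The other calls of these lists were not refitted with arrays left out. In GPR41 KO, 1 marker of neurons and glia (Vip) and 1 of endothelium (Pecam1) fell. Of the markers listed here, 9 of 10 fibroblast, 3 of 6 mesothelial, 2 of 16 striated and 1 of 6 cardiac muscle markers were strong enough to test. None of these passed in limma, where 4.96% of all tested genes did in GPR41 KO and 3.96% in GPR43 KO. At an unadjusted p under 0.05 there were 3, 2, 1 and 0 in GPR41 KO (19.5% of all tested genes), and 2, 1, 1 and 1 in GPR43 KO (20%). Of the 16 striated muscle markers, 12 had a mean signal under the median of all deposited signals. Their summed signal was 1553 and 1979 in GPR41 KO, 2164 and 1930 in GPR43 KO, and 1432 and 1567 in WT, most of it from Ckm and Acta1.

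**Figure D2:**
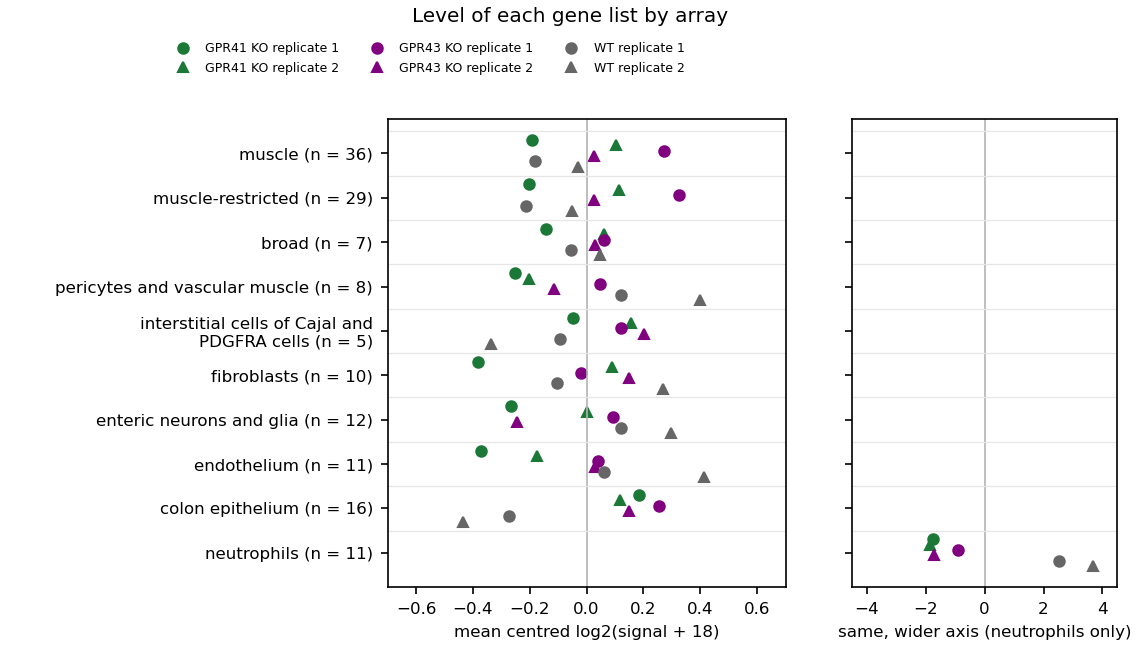
The mean of log2(signal + 18), centred on each gene's mean over the 6 arrays, is shown on the horizontal axis for gene lists on the vertical axis, with 1 point per array (circles replicate 1, triangles replicate 2). Muscle arrays spread from -0.19 to 0.27 with GPR41 KO and WT overlapping (not so with each array centred on its median), while epithelium puts the 4 arrays labelled KO above both WT arrays, and neutrophils, on their own wider axis, put them far below.

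Against WT, 2 members rose and 1 fell in GPR41 KO. Actg2, the gamma actin of enteric smooth muscle, and Synm, the intermediate filament protein synemin, rose, and Hspb7, a small heat shock protein known mainly from heart and other muscle, fell. These 3 of 34 are 8.82%, where 4.96% of all tested genes passed the threshold (1.85% higher, 3.11% lower). The threshold was an adjusted p of 0.05 in limma, a linear model that shares the spread between genes, with Benjamini-Hochberg adjustment over all 10916 tested genes. The median log2 fold change over the 36 members was 0.16, against -0.01 over all genes. At an unadjusted p under 0.05 there were 12 members of 34, where 19.5% of all tested genes passed. Of the tested members 24 had a value above 0, where 50% of all tested genes did. The GPR41 KO pair was wholly above the WT pair in 17 tested members and wholly below it in 5, where 24.6% and 25.3% of all tested genes were. Without GPR41 KO replicate 2 the count of called members was 1 (Hspb7), and the median was 0.06. Without WT replicate 1 the median was also 0.06, while leaving out GPR41 KO replicate 1 gave 0.33.

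In GPR43 KO, taken with the library labelled replicate 1, 3 members rose and 1 fell against the same WT arrays. Actg2 and Synm rose, as did Smtn, which encodes smoothelin, an actin-binding protein of contractile smooth muscle, and Hspb7 fell. These 4 of 34 are 11.8%, where 3.96% of all tested genes passed (1.55% higher, 2.41% lower). The median log2 fold change over the 36 members was 0.26, against 0.02 over all genes, and it was 0.47 without GPR43 KO replicate 2 and 0.18 without the library labelled GPR43 KO replicate 1. At an unadjusted p under 0.05 there were 16 members of 34, where 20% of all tested genes passed. Of the tested members 27 had a value above 0, where 54% of all tested genes did. The GPR43 KO pair was wholly above the WT pair in 19 and wholly below it in 3, where 27.7% and 22.9% of all tested genes were. Both KO comparisons share the WT arrays. Without the library labelled GPR43 KO replicate 1 only Hspb7 passed, and without GPR43 KO replicate 2 no member passed in limma. Such a fit keeps a single array of that genotype and takes its spread from the others.

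Between GPR43 KO and GPR41 KO no member passed the test. In limma 0 of the 34 passed, where 0% of all tested genes did, and 3 members had an unadjusted p under 0.05 (Lmod1, Ppp1r14a and Hspb7, each higher in GPR43 KO), where 5.46% of tested genes had one. The median log2 fold change over the 36 members was 0.21, against 0.04 over all genes, with 27 tested members above 0 (56.3% of all tested genes). Without the library labelled GPR43 KO replicate 1 the median was 0.08, and the log2 differences were 0.21 for Ppp1r14a, 0.32 for Hspb7 and 0.52 for Lmod1, against 0.67, 0.73 and 0.72 with it. Without GPR43 KO replicate 2 the median was 0.32, and these were 1.13, 1.15 and 0.93. Without GPR41 KO replicate 1 the median was 0.05 and that of Lmod1 was 0.46. The GPR43 KO pair was wholly above the GPR41 KO pair in 11 tested members (23.1% of all tested genes) and wholly below it in 2 (14.8%). The standard error of a single member's difference had a median of 0.18, so small differences were not detectable with these arrays.

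**Figure D3:**
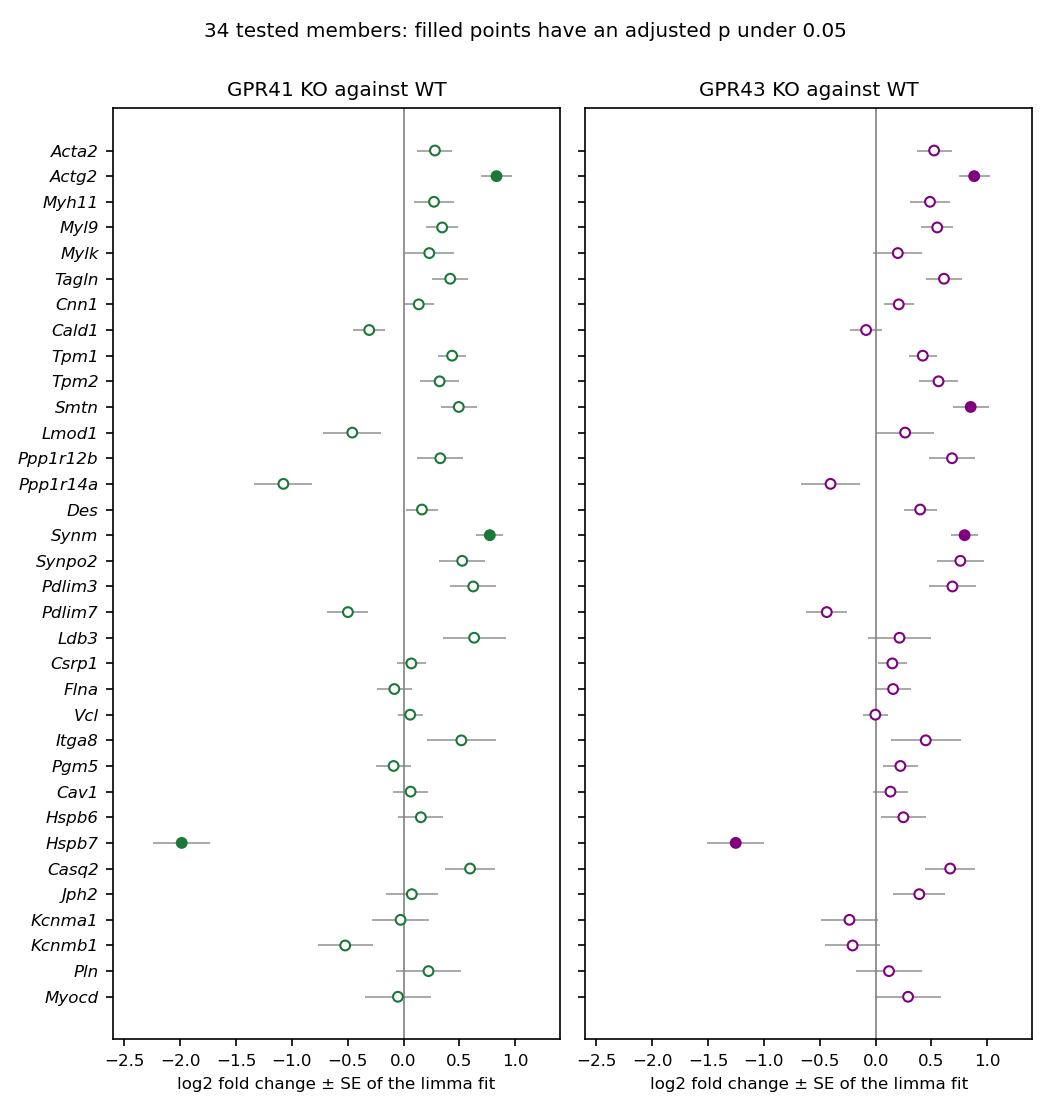
The log2 fold change against WT is shown for the 34 tested members in GPR41 KO (left) and GPR43 KO (right), with bars for the standard error of the limma fit (2 arrays per group). Filled points, at Actg2, Synm and Hspb7 in both panels and Smtn in the right one, passed the threshold. Most open points lie a little above 0.

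Of the 5 filament proteins and their kinase, Actg2 rose in both KO groups and the other 4 did not pass. Actg2, on chromosome 6 at 83512909 to 83536251 (GRCm38.p6), had signals of 15239 and 17176 in GPR41 KO, 17354 (the library labelled GPR43 KO replicate 1) and 16174 (replicate 2) in GPR43 KO, and 10032 and 8218 in WT. All 4 arrays labelled KO were above both WT arrays. Against WT this was a log2 fold change of 0.83 ± 0.14 in GPR41 KO (SE, n = 2 per group, limma adjusted p = 0.0117) and 0.88 ± 0.14 in GPR43 KO (limma adjusted p = 0.0113). The first call was lost without GPR41 KO replicate 1 (limma adjusted p = 0.0568) or replicate 2 (0.0992), and the second without the library labelled GPR43 KO replicate 1 (0.0772) or GPR43 KO replicate 2 (0.0695), without an intensity trend in the fit (0.0521), or with each array centred on its muscle level (0.0791), a setting chosen after seeing the data. Centring on the muscle level takes the members' own level off every gene, which lowers all values against WT in both KO groups. Losses of rises under it follow in part from the setting. Actg2 is read by a single probe set.

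Acta2, the alpha actin of smooth muscle and of myofibroblasts, had signals of 28949 and 32950 in GPR41 KO, 38755 and 34478 in GPR43 KO, and 22665 and 28517 in WT. The groups did not overlap, although GPR41 KO replicate 1 lay close to WT replicate 2. The fitted log2 change was 0.28 ± 0.16 in GPR41 KO and 0.52 ± 0.16 in GPR43 KO (limma adjusted p = 0.379 and 0.11). Its probe set is of the kind that can match several transcripts, and the actins are nearly identical in their coding sequence, so a share of its signal may come from another actin. Myh11, the heavy chain of smooth muscle myosin, had 5093 and 6002 in GPR41 KO, 7041 and 5851 in GPR43 KO, and 3847 and 5441 in WT. GPR41 KO replicate 1 lay between the 2 WT arrays. Relative to WT, the gene's log2 fold change was 0.27 ± 0.18 in GPR41 KO and 0.49 ± 0.18 in GPR43 KO (limma adjusted p = 0.466 and 0.185). Myl9, the regulatory light chain that the kinase phosphorylates, had 14186 and 16620 in GPR41 KO, 18616 and 16863 in GPR43 KO, and 11170 and 13072 in WT. All 4 arrays labelled KO lay above WT, with log2 fold changes of 0.35 ± 0.14 in GPR41 KO and 0.55 ± 0.14 in GPR43 KO that did not pass (limma adjusted p = 0.221 and 0.0684). Mylk, the kinase itself, had overlapping signals of 10374 and 11867 in GPR41 KO, 13359 and 8821 in GPR43 KO, and 7988 and 11197 in WT. The log2 fold changes of this probe set were 0.23 in GPR41 KO and 0.20 in GPR43 KO. Another probe set of similar mean signal had 12737 and 10820 in GPR43 KO, and 7081 and 10140 in WT, without overlap. Its GPR41 KO arrays overlapped WT, and its log2 fold changes were 0.30 in GPR41 KO and 0.47 in GPR43 KO. A weaker probe set of Mylk gave 0.39 and 0.70, with all 4 arrays labelled KO above WT.

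Of the 7 regulators of the thin filament, Smtn rose in GPR43 KO and the other 6 did not pass in either group. Smtn, on chromosome 11 at 3517522 to 3539292, had signals of 2855 and 3778 in GPR41 KO, 4412 (the library labelled GPR43 KO replicate 1) and 4020 (replicate 2) in GPR43 KO, and 2144 and 2524 in WT. Each array labelled KO lay above both WT arrays, and both GPR43 KO arrays lay above both GPR41 KO arrays. Relative to WT the log2 difference was 0.49 ± 0.16 in GPR41 KO (limma adjusted p = 0.129) and 0.85 ± 0.16 in GPR43 KO (limma adjusted p = 0.023). That GPR43 KO call was lost without the library labelled GPR43 KO replicate 1 (limma adjusted p = 0.117) or without GPR43 KO replicate 2 (0.101), and also without an intensity trend in the fit (0.0771) or with each array centred on its muscle level (0.157). The difference between the KO groups, 0.36 ± 0.16, did not pass (limma adjusted p = 0.87).

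Tagln, the actin-binding protein transgelin, had 20466 and 24169 in GPR41 KO, 28206 and 22971 in GPR43 KO, and 15246 and 18179 in WT. Both KO groups lay above WT and overlapped each other. This gave a log2 fold change of 0.42 ± 0.16 in GPR41 KO and 0.61 ± 0.16 in GPR43 KO (limma adjusted p = 0.195 and 0.0742). The tropomyosins, which lie along actin, gave 0.43 for Tpm1 and 0.32 for Tpm2 in GPR41 KO, and 0.42 and 0.56 in GPR43 KO. Calponin, encoded by Cnn1, was among the least variable members, with 12128 and 14388 in GPR41 KO, 14884 and 12943 in GPR43 KO, and 12094 and 11950 in WT. Caldesmon, encoded by Cald1, had log2 fold changes below 0, at -0.31 in GPR41 KO and -0.09 in GPR43 KO. Lmod1, the leiomodin that seeds actin filaments, had 248 and 368 in GPR41 KO, 593 and 441 in GPR43 KO, and 356 and 502 in WT. Its GPR41 KO and GPR43 KO arrays did not overlap, and both overlapped WT.

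The 2 members that act on myosin phosphatase gave values of opposite sign. Ppp1r14a, or CPI-17, inhibits the phosphatase when it is itself phosphorylated. The gene lies on chromosome 7 at 29289320 to 29293390, the chromosome that also holds both receptor genes. Synm and Hspb6 also lie on chromosome 7, and any part of position in the values of these members was not tested. Ppp1r14a had signals of 864 and 1012 in GPR41 KO, 2072 (the library labelled GPR43 KO replicate 1) and 1086 (replicate 2) in GPR43 KO, and 1878 and 2112 in WT. Both GPR41 KO arrays and GPR43 KO replicate 2 were below WT, while the library labelled GPR43 KO replicate 1 was at the WT level. Against WT this was a log2 fold change of -1.08 ± 0.26 in GPR41 KO and just missed the threshold (limma adjusted p = 0.0528). It passed without either GPR43 KO array (limma adjusted p = 0.00645 without the library labelled replicate 1 and 0.00615 without replicate 2) or WT replicate 1 (0.0497), and the adjusted p ranged up to 0.253 with other arrays left out. In GPR43 KO it was -0.40 ± 0.26 (limma adjusted p = 0.437), and -0.86 without the library labelled GPR43 KO replicate 1. Ppp1r12b, a targeting subunit of the phosphatase, had 789 and 988 in GPR41 KO, 1347 and 956 in GPR43 KO, and 625 and 783 in WT. The fitted log2 change was 0.33 in GPR41 KO and 0.68 in GPR43 KO (limma adjusted p = 0.439 and 0.114).

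Of the 8 genes of intermediate filaments and dense bodies, Synm rose in both KO groups and the other 7 did not pass. Synm, on chromosome 7 at 67730161 to 67759742, had signals of 2302 and 2491 in GPR41 KO, 2533 (the library labelled GPR43 KO replicate 1) and 2343 (replicate 2) in GPR43 KO, and 1402 and 1388 in WT. The arrays of each group lay close together and all 4 labelled KO lay above WT. Relative to WT the log2 difference was 0.77 ± 0.12 in GPR41 KO (limma adjusted p = 0.00806) and 0.80 ± 0.12 in GPR43 KO (limma adjusted p = 0.00942). A second probe set of Synm gave 0.89 and 1.06. Without GPR41 KO replicate 2 the first call was lost (limma adjusted p = 0.0677), as was the second without the library labelled GPR43 KO replicate 1 (0.0631) or GPR43 KO replicate 2 (0.0524). With each array centred on its muscle level neither call held (0.0977 in GPR41 KO and 0.223 in GPR43 KO).

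Des, the main intermediate filament protein of muscle, had 7137 and 8342 in GPR41 KO, 10240 and 8056 in GPR43 KO, and 6939 and 6830 in WT, with log2 fold changes of 0.16 ± 0.15 and 0.40 ± 0.15. Synpo2, which binds actin at the Z-line and dense bodies, had 1224 and 1491 in GPR41 KO, 1688 and 1501 in GPR43 KO, and 750 and 1161 in WT. It gave 0.52 ± 0.21 in GPR41 KO and 0.76 ± 0.21 in GPR43 KO (limma adjusted p = 0.21 and 0.0857), and passed in both without WT replicate 2 (0.0489 and 0.0205), the WT array in which it was higher. The 3 PDZ and LIM proteins of the Z-line did not share a sign. Pdlim3 was at 0.62 in GPR41 KO and 0.69 in GPR43 KO, Ldb3 at 0.63 and 0.21, and Pdlim7, which many tissues make, at -0.50 and -0.44. For Pdlim7 both KO groups lay wholly under WT (838 and 1028 in GPR41 KO, 1106 and 849 in GPR43 KO, 1194 and 1457 in WT), without passing the test. Csrp1 and the actin crosslinker Flna had log2 fold changes between -0.08 and 0.16.

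None of the 4 members at the cell membrane passed in limma, where 4.96% of all tested genes did in GPR41 KO and 3.96% in GPR43 KO. At an unadjusted p under 0.05 there were also 0, where 19.5% and 20% of all tested genes passed. So few members would seldom hold a call at these shares. Besides Vcl, the junction protein gene Pgm5 had log2 fold changes of -0.09 in GPR41 KO and 0.22 in GPR43 KO, and Cav1, which encodes caveolin and is also strong in endothelium and fat, had 0.06 and 0.13. Itga8, an integrin chain of smooth muscle, had weak signals of 137 and 188 in GPR41 KO, 126 and 184 in GPR43 KO, and 116 and 98 in WT. All 4 arrays labelled KO lay above WT, with log2 fold changes of 0.52 ± 0.31 in GPR41 KO and 0.45 ± 0.31 in GPR43 KO (limma adjusted p = 0.415 and 0.472).

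Of the small heat shock proteins, Hspb7 fell in both KO groups and Hspb6, which is phosphorylated during relaxation, did not pass. Hspb7, on chromosome 4 at 141420779 to 141425310, had signals of 357 and 301 in GPR41 KO, 749 (the library labelled GPR43 KO replicate 1) and 413 (replicate 2) in GPR43 KO, and 1356 and 1347 in WT. All arrays labelled KO were below WT, and the library labelled GPR43 KO replicate 1 was the nearest to it. Against WT this was a log2 fold change of -1.99 ± 0.25 in GPR41 KO (limma adjusted p = 0.00334) and -1.25 ± 0.25 in GPR43 KO (limma adjusted p = 0.0311). The GPR41 KO call held with each array left out in turn. The GPR43 KO call held without the library labelled replicate 1, at -1.67, and was lost without GPR43 KO replicate 2 (-0.84, limma adjusted p = 0.13), WT replicate 2 (0.0903) or GPR41 KO replicate 1 (0.0504), and without an intensity trend (0.0753). Its other 2 probe sets gave -1.80 and -1.56 in GPR41 KO, and -1.24 and -0.85 in GPR43 KO. Hspb6 had 984 and 1056 in GPR41 KO, 1288 and 920 in GPR43 KO, and 784 and 1065 in WT. In the same arrays the neutrophil level was lower by more than 3 on the log2 scale in each array labelled KO than in WT, and its part in the fall of Hspb7 was not tested.

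**Figure D4:**
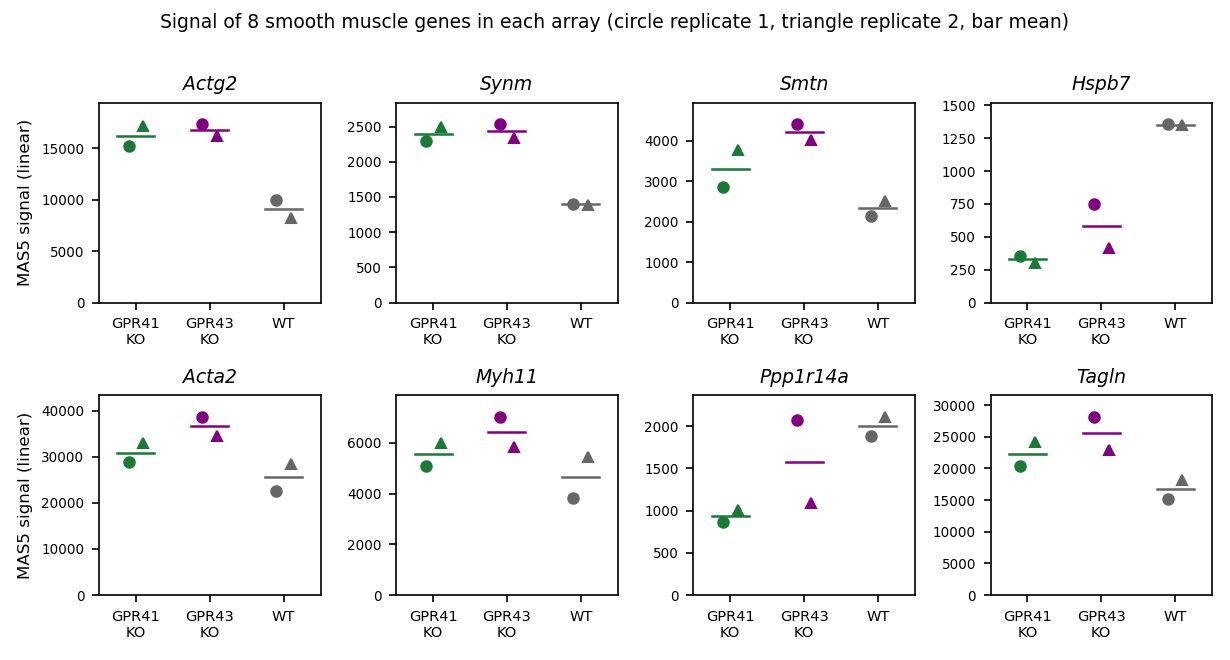
MAS5 signal on a linear scale from 0 (vertical axis) is shown for 8 members in GPR41 KO, GPR43 KO and WT (horizontal axis), with a circle for replicate 1, a triangle for replicate 2 and a bar for their mean. Actg2, Synm and Smtn lie higher in arrays labelled KO than in WT, Hspb7 lies lower, and in Ppp1r14a the library labelled GPR43 KO replicate 1, at 2072, lies at the WT level.

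The genes of calcium and potassium handling, of the muscarinic receptors and of transcription gave no call. Of all tested genes, 4.96% passed in GPR41 KO and 3.96% in GPR43 KO. Casq2, which stores calcium in the sarcoplasmic reticulum, had 257 and 278 in GPR41 KO, 301 and 264 in GPR43 KO, and 161 and 182 in WT, and did not overlap between KO and WT arrays. Relative to WT, the gene's log2 fold change was 0.59 ± 0.22 in GPR41 KO and 0.67 ± 0.22 in GPR43 KO (limma adjusted p = 0.181 and 0.141). Kcnmb1, the beta subunit of the calcium-activated potassium channel, had 171 and 144 in GPR41 KO, 214 and 187 in GPR43 KO, and 216 and 252 in WT, all KO arrays being below WT. This gave a log2 fold change of -0.52 in GPR41 KO and -0.21 in GPR43 KO, while that of the channel's pore gene Kcnma1 was -0.03 and -0.23. Jph2, which holds membrane and sarcoplasmic reticulum together, and Pln, which restrains the calcium pump, had log2 fold changes from 0.07 to 0.39. Cacna1c, the L-type calcium channel, had weak signals of 13.2 and 132 in GPR41 KO, 94.5 and 127 in GPR43 KO, and 92.6 and 108 in WT. The muscarinic receptor gene Chrm3 was weaker still, from 4.70 to 63.2, too near background for any order. Myocd, the partner of serum response factor, had 108 and 146 in GPR41 KO, 189 and 142 in GPR43 KO, and 140 and 122 in WT, with log2 fold changes of -0.05 ± 0.30 and 0.29 ± 0.30.

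**Figure D5:**
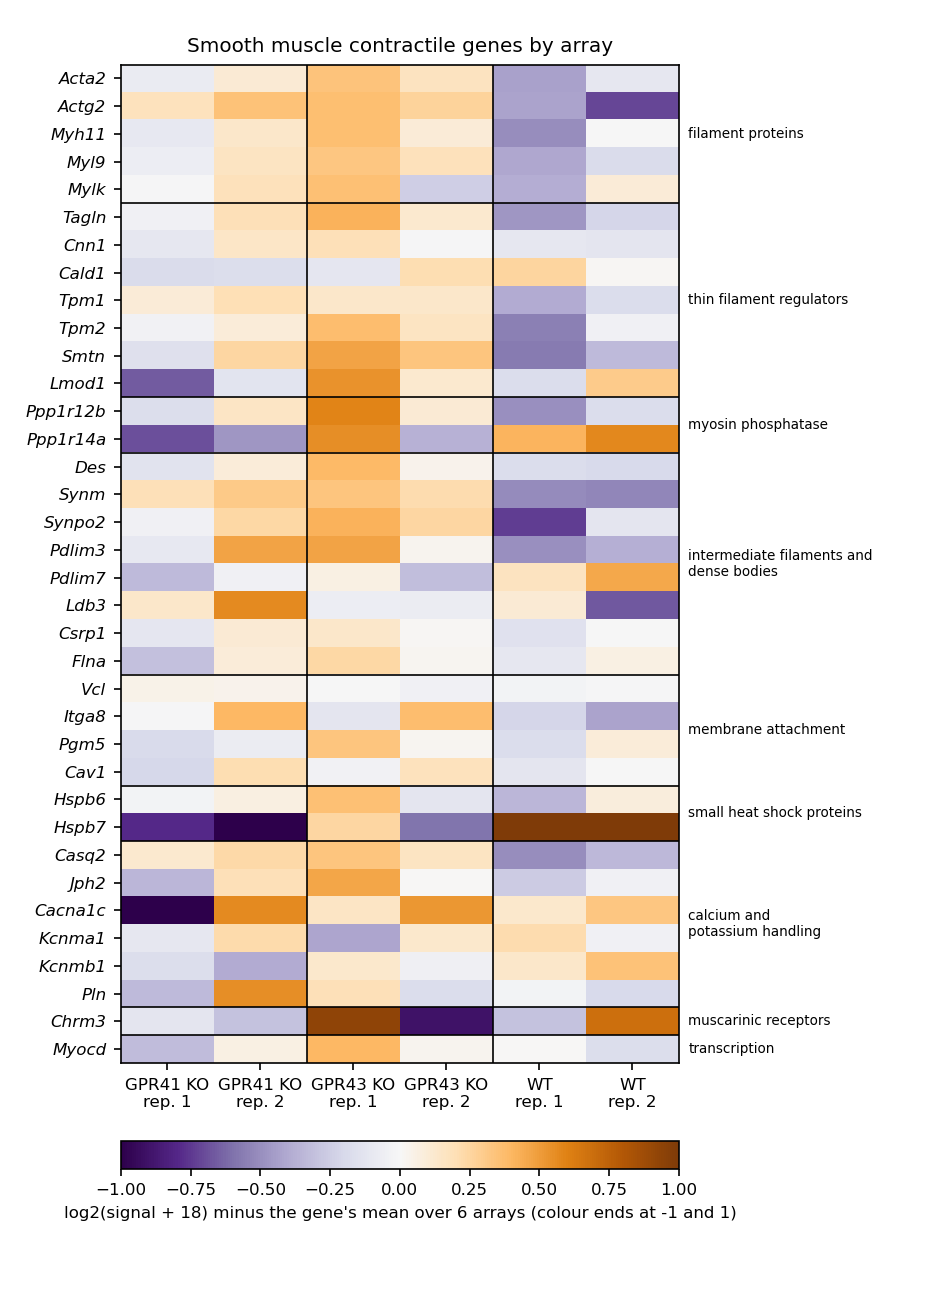
Colour shows log2(signal + 18) minus each gene's mean over the 6 arrays for the 36 members (rows, grouped by role) and the 6 arrays (columns), with orange above and purple below the mean and colour limits at -1 and 1. The column of the library labelled GPR43 KO replicate 1 is mostly orange, with the highest signal in 22 members, and Hspb7 and Ppp1r14a run against the rows around them in WT.

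Where a member had several probe sets with mean signals above 100, they mostly pointed the same way. This was so for 13 of 16 such members in GPR41 KO against WT and for 11 of 16 in GPR43 KO against WT.

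Of 18 genes around serum response factor and its myocardin-related partners, 15 were tested and 1 rose in each KO group, in both cases Fhl1, a LIM-domain protein abundant in muscle. That is 6.67% of the 15, where 4.96% of all tested genes passed in GPR41 KO and 3.96% in GPR43 KO. Fhl1 had signals of 10555 and 10986 in GPR41 KO, 11186 and 12829 in GPR43 KO, and 6466 and 5876 in WT. The fitted log2 change was 0.80 ± 0.12 in GPR41 KO (limma adjusted p = 0.0077) and 0.96 ± 0.12 in GPR43 KO (limma adjusted p = 0.00491). It was lost without GPR41 KO replicate 1 (0.059), GPR41 KO replicate 2 (0.0671) or, in the GPR43 KO comparison, GPR43 KO replicate 2 (0.0533) or muscle centring (0.0559). The log2 fold change of Srf itself was 0.03 in GPR41 KO and 0.11 in GPR43 KO.

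Cells that share genes or space with smooth muscle gave their own values. Ano1, the chloride channel that marks interstitial cells of Cajal, had 4391 and 4917 in GPR41 KO, 6933 and 6944 in GPR43 KO, and 2984 and 2792 in WT, and rose by 0.68 ± 0.12 in GPR41 KO (limma adjusted p = 0.0124) and by 1.26 ± 0.12 in GPR43 KO (limma adjusted p = 0.00137). In GPR41 KO the call was lost without replicate 1 (0.052) or replicate 2 (0.101), without an intensity trend (0.056) and with muscle centring (0.162). Kit, the other classic marker of these cells, had 501 and 672 in GPR41 KO, 802 and 730 in GPR43 KO, and 707 and 553 in WT. Its GPR41 KO arrays overlapped WT, its GPR43 KO arrays did not, and it did not pass (limma adjusted p = 0.823 and 0.47). Kcnj8, a potassium channel subunit of pericytes and vascular muscle, had 678 and 762 in GPR41 KO, 898 and 587 in GPR43 KO, and 1613 and 3055 in WT. It fell by 1.60 ± 0.29 in GPR41 KO and fell by 1.59 ± 0.29 in GPR43 KO on the log2 scale (limma adjusted p = 0.0169 and 0.0221). These calls were lost without GPR41 KO replicate 1 (0.112) or replicate 2 (0.0708), and without GPR43 KO replicate 2 (0.144) or WT replicate 2 (0.0533), and both without an intensity trend (0.0563 and 0.0689). Its partner Abcc9 fell in GPR41 KO, with a log2 fold change of -0.996 there and -0.65 in GPR43 KO (limma adjusted p = 0.0255 and 0.118), and the GPR41 KO call was lost without GPR41 KO replicate 1 (0.14), GPR41 KO replicate 2 (0.103) or WT replicate 2 (0.133), with a replicate block (0.0519) and without an intensity trend (0.053). In GPR43 KO the log2 fold change of Abcc9 was -0.88 without WT replicate 1. With muscle centring, which lowers the GPR43 KO value of every gene, Abcc9 passed at -0.91 (limma adjusted p = 0.0165). The difference of Abcc9 between the KO groups did not pass (limma adjusted p = 0.895). The GPR43 KO calls of Fhl1, Ano1 and Kcnj8 held without the library labelled GPR43 KO replicate 1. Rgs5, a widely used pericyte marker, had 5799 and 6918 in GPR41 KO, 7281 and 5974 in GPR43 KO, and 6382 and 7609 in WT.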

How the data were processed

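Total RNA of colon (2 µg) was amplified, labelled with biotin and hybridised to 1 Affymetrix array per sample, per the labels. The authors deposited an intensity for each probe set, computed with MAS5 per the submitters' processing notes. These values are linear and already scaled: without the lowest and highest 2% of probe sets, each array's mean was 499.8. Of 45101 probe sets, 34958 had 1 gene symbol, 932 several and 9211 none, and 34754 were matched to RefSeq by Entrez identifier. The members and lists were chosen with earlier results of these data known. After adding 18 (close to the 20th percentile of all signals, 18.4) and taking log2, the probe set with the highest mean was kept per gene, and the 10916 genes above the 40th percentile of mean log2 signal were tested. Adding 18 draws weak signals together, which understates their folds. Group means over the 6 arrays were estimated in limma 3.58.1 in R 4.3.3 (lmFit, eBayes with an intensity trend, two-sided). Errors after ± are standard errors. An exact permutation test of 2 arrays against 2 could not give a p below 0.333. The rule for naming genes allowed all members, members of other lists that passed, and Ffar2. Chosen after their values were seen were Kit, Rgs5, Srf, Ckm and Acta1. The steps were tested on simulated data, in which 200 of 10916 genes were shifted in GPR41 KO. A log2 shift of 1 was called in 42.25% of the shifted genes, and a shift of 2 in 89.5%. A member that did not pass may thus still differ. Alternatives covered the pseudocount, scaling, filter, probe sets, intensity trend, a replicate block and leaving out each array. Results of 1 further gene list are not reported here.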

Additional observations from a re-analysis of the deposited data

How the results depend on the processing

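The muscle level spanned from 0.41 to 0.55 between arrays under 7 alternatives, 1 of them (members with a mean signal above 1000) chosen after seeing the data. Leaving out single arrays moved the median of the members between 0.057 and 0.33 in GPR41 KO, between 0.18 and 0.47 in GPR43 KO, and between 0.046 and 0.32 for GPR43 KO against GPR41 KO. The same fits moved the count of called members between 1 and 4 in GPR41 KO and between 0 and 6 in GPR43 KO. With each array centred on its median, 5 members passed in GPR41 KO, Pdlim3 and Ppp1r14a among them. Without an intensity trend 1 passed in GPR43 KO, and so did 1, Hspb7, with each array centred on its muscle level, an alternative chosen after seeing the data. No called member turned its sign under any alternative. Of the 34 tested members 22 kept their sign in GPR41 KO and 26 in GPR43 KO under the 13 to 15 alternatives that gave each a value, muscle centring aside. With the replicate number as a replicate block the counts stayed at 3 and 4, with the same genes, and Abcc9 and Vil1 lost their GPR41 KO calls (limma adjusted p = 0.0519 and 0.0715). Differences between replicates correlated across genes at 0.11, -0.27 and -0.05 between groups, so the numbers do not pair the arrays. Over all genes, 541 passed in GPR41 KO (37.3% higher) and 432 in GPR43 KO (39.1% higher). These were 656 (48.3%) and 498 (37.6%) with median centring, 613 (24.5%) and 719 (10.6%) with muscle centring, 335 and 280 with the filter at the 60th percentile, and 360 and 217 without the trend. For GPR43 KO against GPR41 KO, muscle centring gave 25 genes where 0 passed otherwise with all 6 arrays. Muscle centring moved the median over all tested genes to -0.063 in GPR41 KO and -0.23 in GPR43 KO against WT. More falls and fewer rises under it follow in part from the setting. With arrays left out the counts against WT ranged from 205 to 888 and from 142 to 753. The cause of the other changes was not tested. Signals near background, as in Chrm3 and Cacna1c, have no reliable order.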
